A study of Mus musculus with 6 samples.

Results

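The genes described here encode the respiratory chain, and were followed in megakaryocyte–erythroid progenitors (MEPs), the bone marrow cells from which red blood cells and megakaryocytes arise. They were chosen by symbol. Genes of the mitochondrial genome were taken when the symbol begins with mt-Nd, mt-Co, mt-Cytb or mt-Atp, and nuclear genes when it begins with Ndufa, Ndufb, Ndufc, Ndufs, Ndufv, Uqcr, Cox4i, Cox5 to Cox8 or Atp5, or is *Sdha* to *Sdhd*, *Cyc1* or *Cycs*. Assembly factors (Ndufaf) and pseudogenes were left out. The rule found 93 of the 12101 listed genes, 13 from the mitochondrial genome and 80 from the nucleus, and all 93 were among the 12088 genes tested. *Atp5s* and *Atp5sl* match by symbol but are not known as structural subunits of ATP synthase. The annotated isoforms *Cox4i2*, *Cox6a2*, *Cox7a1*, *Cox7b2*, *Cox8b*, *Cox8c* and *Ndufa4l2* have symbols of the same kind, are not among the 93 and were not analysed here.

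RNA was sequenced from sorted MEPs of adult *Nanog*-tg mice, labelled as CD-1, in 3 replicates from mice given doxycycline (dox) in the drinking water for 5 days and 3 replicates from untreated mice. Both groups carry the same pair of transgenes (*R26-M2rtTA;Col1a1-tetO-Nanog*), a dox-dependent activator at *Rosa26* and a *Nanog* cassette that it switches on. *Rosa26* is active in most tissues, so induction was not restricted to MEPs or to blood. No dox-treated mice without the transgenes were included, so an effect of the drug itself and an effect of *Nanog* cannot be told apart, and dox belongs to the tetracyclines, which act on bacterial ribosomes and can also act on those of mitochondria.

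Respiratory complexes I, III and IV pump protons across the inner mitochondrial membrane while electrons pass from NADH to oxygen, complex II feeds in electrons from succinate, and complex V uses the proton gradient to make ATP. Complexes I, III, IV and V are built from subunits of both genomes, whereas complex II and the electron carrier cytochrome c are wholly nuclear. The mitochondrial genome is transcribed as long precursors from both strands and cut into single messages. In the erythroid lineage mitochondria also supply the haem of haemoglobin, and they are removed as red cells mature.

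Levels are CPM, the counts of a gene scaled to the size of its library, taken from the deposited log2 values, and are given in the order of replicates 1, 2 and 3. Fold changes are log2, dox-treated minus untreated, tested with limma over all genes with Benjamini–Hochberg adjustment at 0.05. Library depth on the listed genes ran from 11264803 to 16153600 reads, and the thinnest value of any respiratory gene rested on 119 reads (*Atp5s*, untreated replicate 3). *Nanog* was at 1256, 1460 and 1024 CPM with dox and at 0.739, 0.998 and 0.136 CPM without. Dox-treated replicate 3 stood apart from the other dox-treated libraries, at -14.8 on the first principal component against -57.5 and -56.3, with untreated libraries between 35.1 and 54.2. For the mitochondrial and nuclear members and for each gene list, the count past the threshold with the deposited scaling is given with and without it.

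The compact layout of the mitochondrial genome bears on how its messages can be counted. The genome of build NCBIM37 is 16299 bases long with 36.7% GC, and neighbouring genes share bases at 4 of the junctions between these genes. At 1 of them, *mt-Atp6* and *mt-Co3*, a single base at position 8607 is shared. The other 3 are shown because reads from the shared bases, in capitals, belong to both genes of a pair. Each is written on the plus strand with flanking bases in lower case. The first pair is the *mt-Atp8* and *mt-Atp6* junction at chrM:7897-7999, with 43 shared bases. The next is *mt-Nd4l* and *mt-Nd4* at chrM:10137-10203, with 7. The last is *mt-Nd5* and *mt-Nd6* at chrM:13522-13595, with 14, where *mt-Nd6* is read from the opposite strand.
mt-Atp8/mt-Atp6: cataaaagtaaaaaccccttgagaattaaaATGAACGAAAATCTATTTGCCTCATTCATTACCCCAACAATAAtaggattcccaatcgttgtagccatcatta
mt-Nd4l/mt-Nd4: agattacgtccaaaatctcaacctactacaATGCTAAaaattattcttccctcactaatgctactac
mt-Nd5/mt-Nd6: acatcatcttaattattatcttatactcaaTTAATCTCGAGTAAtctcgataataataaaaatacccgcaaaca

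All 13 genes of the mitochondrial genome had lower expression in every dox-treated library than in any untreated library, and 9 of them fell past the threshold. Of all genes tested, 3.18% fell past the threshold, 4.59% rose past it and 18.2% were lower in every dox-treated library. None of the 13 passed without any one library other than dox-treated replicate 3, where between 0.298% and 1.04% of all genes fell. With the replicate number as a block none passed either, where 0.24% of all genes fell. The median log2 fold change was -0.69, or 0.62 of the untreated level, against -0.03 over all genes tested. Fold changes ranged from -0.90 (*mt-Nd1*) to -0.40 (*mt-Nd3*). In a bulk library, fewer mitochondrion-rich cells and less mitochondrial RNA per cell cannot be told apart.

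Complex I takes 7 of its subunits from the mitochondrial genome, which all lie in its membrane arm. *mt-Nd1* (chrM, 2751 to 3707), the subunit next to the quinone channel, was at 1946, 2054 and 2874 CPM with dox and at 4173, 3971 and 4530.3 CPM without. Its dox-treated mean was 2291 ± 507 CPM against 4225 ± 283 CPM (SD, n = 3 each), a fall of the log2 level by 0.90 (SE 0.17, adjusted p = 0.0389). Dox-treated replicate 3 lay between its group and the untreated libraries without reaching them. *mt-Nd2*, one of the antiporter-like proton pumping subunits, was at 1103, 1295 and 1237 CPM with dox and at 1973, 1852 and 2028.5 CPM without (-0.69, SE 0.11, adjusted p = 0.0242). *mt-Nd4*, another of these pumping subunits, was at 1932.5, 2171 and 2309.8 CPM against 3517, 3430.3 and 3851 CPM (-0.75, SE 0.12, adjusted p = 0.0225). *mt-Nd4l*, which shares a messenger with *mt-Nd4*, was at 127, 143 and 155 CPM against 233, 221 and 258 CPM (-0.75, SE 0.12, adjusted p = 0.0277). These 4 genes fell past the threshold, and the spread within either group was smaller than the gap between groups.

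The remaining mitochondrial genes of complex I were lower in every dox-treated library but did not pass the threshold. *mt-Nd5*, the longest message, was at 1478, 1554 and 1836 CPM with dox and at 2443, 2078 and 2579 CPM without (-0.55, SE 0.14, adjusted p = 0.0705). *mt-Nd6*, the only protein gene on the other strand of the genome, was at 378, 385 and 479.8 CPM against 603, 505 and 619 CPM (-0.48, SE 0.15, adjusted p = 0.0985). *mt-Nd3*, one of the smallest subunits, was at 250.4, 304 and 309 CPM against 413, 363 and 358 CPM (-0.40, SE 0.13, adjusted p = 0.112). The groups lay closest in *mt-Nd6*, where dox-treated replicate 3 and untreated replicate 2 were at 479.8 and 505 CPM. The counting of strand is not given in the sources used here, so reads of *mt-Nd6* and of transcripts antisense to it cannot be told apart.

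In complex III, *mt-Cytb* (chrM, 14145 to 15288), the haem-carrying cytochrome b at its centre, was at 3134, 3362 and 3679 CPM with dox and at 5035, 4906 and 5587 CPM without. It fell by 0.61 on the log2 scale (SE 0.11, adjusted p = 0.0357), with no overlap between the groups. Complex IV draws its catalytic core from the mitochondrial genome. *mt-Co1* (chrM, 5328 to 6872), which holds the oxygen-reducing site, was at 7961, 7714 and 10938 CPM with dox and at 14419, 14677 and 15421 CPM without (-0.76, SE 0.16, adjusted p = 0.0463). *mt-Co2*, which accepts electrons from cytochrome c, was at 3573, 4003 and 4502 CPM against 6115, 6484 and 6844 CPM (-0.69, SE 0.12, adjusted p = 0.0337). *mt-Co3*, the third core subunit, was at 2511, 2519 and 3884 CPM against 4831, 4351 and 4809.5 CPM (-0.68, SE 0.20, adjusted p = 0.0875). *mt-Co1* and *mt-Co2* passed the threshold. *mt-Co3* had a log2 fold change close to theirs but did not pass, and its dox-treated replicate 3 was well above the other dox-treated libraries.

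Complex V has a pair of mitochondrial subunits in its membrane part. *mt-Atp6*, which forms the proton path, was at 2386.5, 2564 and 3269.6 CPM with dox and at 4164, 4315 and 4477 CPM without (-0.67, SE 0.15, adjusted p = 0.0486). *mt-Atp8*, a small peripheral subunit, was at 414, 425 and 511 CPM against 668, 769 and 759 CPM (-0.71, SE 0.13, adjusted p = 0.0348). Both fell past the threshold.

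**Figure D1:**
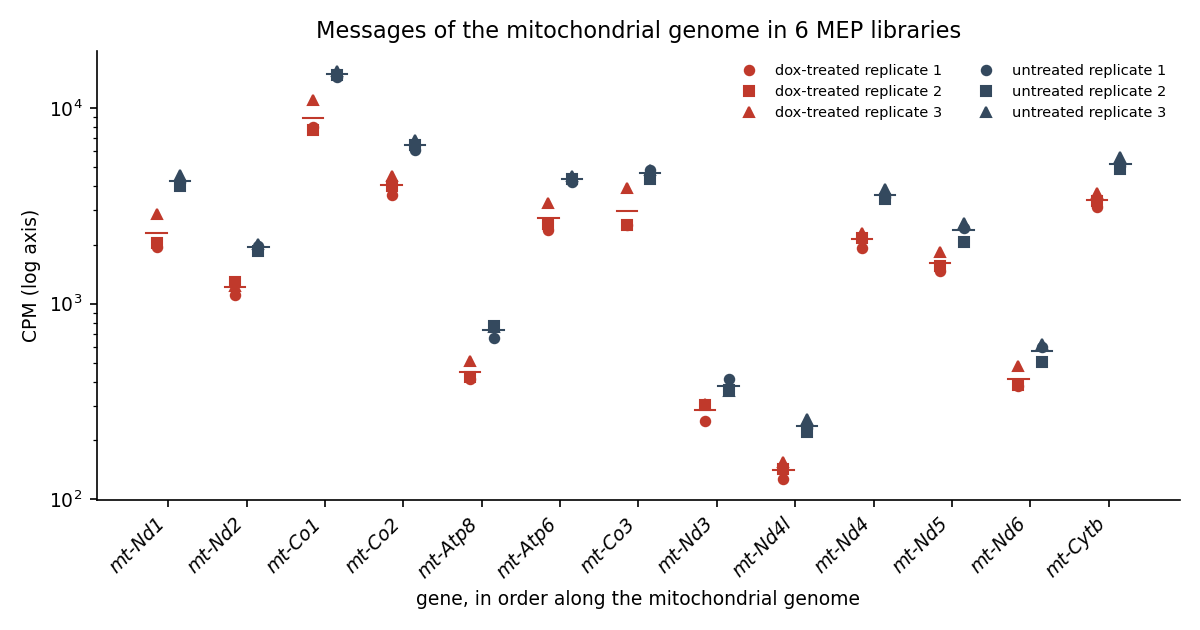
CPM on a log axis of the 13 protein genes of the mitochondrial genome, in the order of the genome, in 3 dox-treated (red) and 3 untreated (dark) libraries, with a symbol for each replicate and a short line at each group mean. For all 13 genes every dox-treated library lies below every untreated library, and dox-treated replicate 3 is the highest of its group for 12.

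For the 3 pairs that share bases on one strand, the ratio of levels overlapped between the groups. The log2 difference between *mt-Nd4l* and *mt-Nd4* was -3.93, -3.92 and -3.90 with dox and -3.92, -3.96 and -3.90 without. Between *mt-Atp8* and *mt-Atp6* it was -2.53, -2.59 and -2.68 against -2.64, -2.49 and -2.56. Between *mt-Atp6* and *mt-Co3* it was -0.0735, 0.0257 and -0.25 against -0.21, -0.0119 and -0.10. For the pair on opposite strands, *mt-Nd5* and *mt-Nd6*, it was 1.97, 2.01 and 1.94 against 2.02, 2.04 and 2.06, so every dox-treated library was lower, by 0.0688 between the means. The members furthest apart in fold change, *mt-Nd1* and *mt-Nd3*, differed between the groups by more, with 2.96, 2.76 and 3.22 with dox against 3.34, 3.45 and 3.66 without, a description of a pair picked for its extremes.

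Some copies of mitochondrial sequence are listed as separate genes. *Gm10222* is identical to *mt-Nd4l* over 297 bases, and it was listed with exactly the same values, 127, 143 and 155 CPM with dox and 233, 221 and 258 CPM without. Reads of *mt-Nd4l* and *Gm10222* therefore cannot be told apart, and the listed level of *mt-Nd4l* may hold only a part of its reads. *Gm10925*, which shares 180 identical bases with *mt-Atp8* and matches *mt-Atp6* at 93.8% over 677 bases, was at 1552, 1737 and 2222 CPM with dox and at 2847.5, 2758 and 2867 CPM without (-0.64, SE 0.15, adjusted p = 0.0614). It was thus lower in every dox-treated library, as were *mt-Atp6* and *mt-Atp8*.

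Per kilobase of transcript, mitochondrial messages were the more abundant class. In untreated MEPs they ranged from 798 CPM per kilobase (*mt-Nd4l*, whose listed level may hold only a part of its reads) to 9605 (*mt-Co1*), with a median of 3588. Nuclear members ranged from 8.40 (*Atp5s*) to 1012 (*Atp5b*), with a median of 138. With dox the medians were 2204 and 127 CPM per kilobase. Together the 13 mitochondrial genes took 2.92%, 3.08% and 3.47% of listed reads with dox and 4.69%, 4.54% and 5.09% without, whereas the 80 nuclear genes took 1.18%, 1.17% and 1.37% against 1.32%, 1.39% and 1.29%. The shares of the mitochondrial genes did not overlap between the groups, and those of the nuclear genes did.

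No nuclear respiratory gene passed the threshold in either direction, although most had a log2 fold change below 0. At an unadjusted p under 0.05, 9 of the 80 were lower and 1 was higher, where 13.6% and 15.6% of all genes tested were lower and higher. The log2 fold change was below 0 for 72 of the 80 and above 0 for 8, with a median of -0.24. Every dox-treated library was below every untreated library for 22 of the 80 (27.5%, against 18.2% of all genes tested) and above for 1 (against 17.7%).

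The nuclear genes differed between the dox-treated libraries themselves. Relative to the untreated mean, their median log2 level was -0.35 in dox-treated replicate 1, -0.36 in replicate 2 and +0.05 in replicate 3. Replicate 1 was below all untreated libraries for 72 of the 80 and replicate 2 for 74, where 40.6% and 41.4% of all genes tested were. Replicate 3 was below them for 23 and above them for 31, where 34.3% and 35.3% of all genes were. The mitochondrial genes were low in all 3, with medians of -0.86, -0.73 and -0.49. Without dox-treated replicate 3, 37 of the 80 nuclear genes and 12 of the 13 mitochondrial genes passed the threshold downward, where 14% of all genes tested did. Among the nuclear respiratory genes named in the text, those past the threshold in its absence but not with it were *Ndufa5* (adjusted p = 0.0184), *Sdhd* (0.0224), *Sdhb* (0.0248), *Cox8a* (0.0277), *Atp5o* (0.0288), *Atp5g1* (0.0327), *Cox6a1* (0.0338), *Cox5a* (0.0363), *Atp5b* (0.0374), *Cycs* (0.0427), *Cox7a2* (0.0435), *Cyc1* (0.0470) and *Cox6b1* (0.0493). Among mitochondrial genes *mt-Co3* (0.0083), *mt-Nd5* (0.0260) and *mt-Nd6* (0.0294) joined those past it. The nuclear medians were then -0.35, -0.39, -0.45, -0.39 and -0.33 for complexes I to V. Without any other single library no respiratory gene of either genome fell past it, where between 0.298% and 1.04% of all genes did. Weights that rate each library by its fit gave dox-treated replicate 3 a weight of 0.163, and with them 13 mitochondrial and 51 nuclear genes were lower and 1 nuclear gene higher, where 21.5% and 20.8% of all genes were. With a mean-variance trend 2 nuclear genes were lower and 1 higher (6.18% and 7.52% of all genes), and with voom precision weights 1 was lower (4.72%, with 5.09% higher). With the replicate number as a block no respiratory gene fell, where 0.24% of all genes fell and 0.438% rose.

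**Figure D2:**
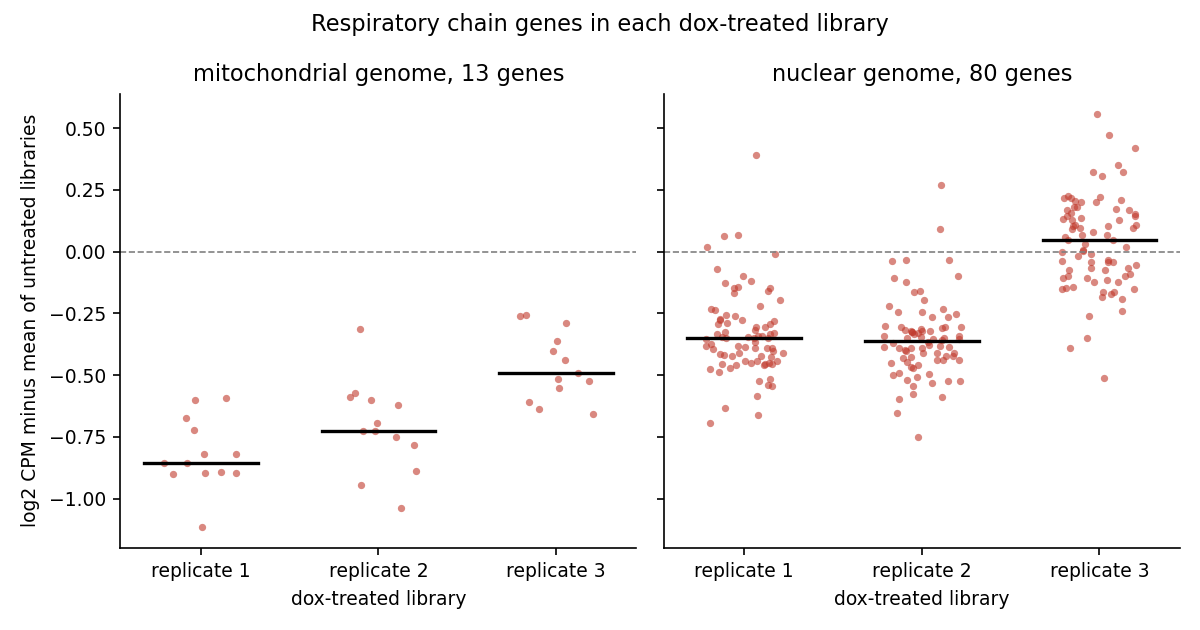
Log2 CPM minus the mean of the untreated libraries (vertical axis) for each mitochondrial (left) and nuclear (right) respiratory gene, in each of the 3 dox-treated libraries, with a black line at the median. The mitochondrial genes lie below 0 in all 3 libraries, whereas the nuclear genes centre at -0.35, -0.36 and +0.05.

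Markers of blood cell types also differed between the libraries, not all in the same pattern. The summed level of 12 MEP and erythroid markers was 5800, 5438 and 9121 CPM with dox and between 8139 and 8551 CPM without, so that dox-treated replicate 3 was again apart from the other dox-treated libraries. In that library 8 of the 12 were below every untreated library, where 34.3% of all genes were. Another 3 were above (*Car1*, *Car2* and *Itga2b*), where 35.3% of all genes were. The mean log2 level of the list in that library, 8.49, was below the 8.55 to 8.62 of the untreated libraries. The largest part of the sum there was *Car1*, a carbonic anhydrase of erythroid cells, at 1460, 1280 and 3359 CPM with dox and between 2034 and 2506 CPM without. Of this list 1 gene fell past the threshold (*Ank1*), where 3.18% of all genes did. Without dox-treated replicate 3, 7 fell and 1 rose, where 14% and 14.9% of all genes did. None passed without any one of the other libraries, where at most 1.04% of all genes fell and 1.18% rose. With all libraries 8 were lower in every dox-treated library and 1 was higher, where 18.2% and 17.7% of all genes were. The higher one was *Itga2b*, also a megakaryocyte marker, at 319, 314 and 66.9 CPM with dox and 37.5, 24.1 and 39.3 CPM without (+2.52, adjusted p = 0.0694, and 0.00515 without dox-treated replicate 3), singled out after its values were seen. The summed level of 12 granulocyte-monocyte markers was 928, 829 and 574 CPM with dox and between 2390.4 and 5507 CPM without. Here dox-treated replicate 3 was the furthest of its group from the untreated libraries. In every dox-treated library 11 of the 12 were lower and 1 was higher (+1.465), where 18.2% and 17.7% of all genes were. Past the threshold 8 of the 12 fell and none rose, where 3.18% and 4.59% of all genes did. The 5 with the smallest p were *Ly6c2* (-3.31, adjusted p = 0.00828), *Elane* (-3.22, adjusted p = 0.0108), *Cebpe* (-2.85, adjusted p = 0.0109), *Prtn3* (-2.79, adjusted p = 0.0156) and *Ms4a3* (-2.48, adjusted p = 0.0177). Without dox-treated replicate 3, 9 fell and 1 rose, where 14% and 14.9% of all genes did, and without any one of the other libraries between 1 and 7 fell, where between 0.298% and 1.04% of all genes did. Mast cell and basophil markers summed to between 254 and 472 CPM with dox and between 77.7 and 155 CPM without, and 3 of 6 rose past the threshold, where 4.59% of all genes did, or 5 without dox-treated replicate 3 (14.9% of all genes) and 1 without any one of the other libraries (0.761% to 1.18%). The 3 were *Cpa3* (+2.93, adjusted p = 0.00965), *Ms4a2* (+2.76, adjusted p = 0.0219) and *Slc18a2* (+1.497, adjusted p = 0.0321). Of the 6, 5 were higher in every dox-treated library, where 17.7% of all genes were. The other 1 had a negative log2 fold change (-0.93). Megakaryocyte markers summed to between 173 and 552 CPM against 97.5 to 143 CPM, and 3 of 9 rose and 1 fell, where 4.59% and 3.18% of all genes did. *Itga2b* is counted in this list too. It was the largest part of the sums of 552 and 535 CPM in dox-treated replicates 1 and 2. *Pecam1* (+2.47, adjusted p = 0.0311), *Gp9* (+1.28, adjusted p = 0.0321) and *Gp1ba* (+0.90, adjusted p = 0.0486) rose and *Vwf* (-1.31, adjusted p = 0.0181) fell. Without dox-treated replicate 3, 5 rose and 2 fell (14.9% and 14% of all genes), and without any one of the others at most 1 rose and 2 fell (at most 1.18% and 1.04%). Lymphoid markers summed to between 9.79 and 24.1 CPM against 8.23 to 15.7 CPM, and 0 of 5 passed the threshold in limma, with 0 at an unadjusted p under 0.05 and 0 without dox-treated replicate 3. No listed marker was at 0 in any library. The part of these cell types in the respiratory gene levels was not tested.

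Complex I holds 37 nuclear members, with a median log2 fold change of -0.23, and 11 of them were lower in every dox-treated library (29.7%, where 18.2% of all genes were). *Ndufa5*, an accessory subunit of the matrix arm, had the lowest value, at 35.5, 34.1 and 56.8 CPM with dox and 59.9, 61.6 and 51.4 CPM without (-0.49, SE 0.22, adjusted p = 0.207). The groups overlapped there through dox-treated replicate 3. *Ndufab1*, the mitochondrial acyl carrier protein, did not overlap, at 65.0, 60.3 and 59.6 CPM against 77.8, 100.2 and 79.0 CPM (-0.47, SE 0.13, adjusted p = 0.0875). It was picked out after its values were seen, as the member of complex I with the smallest adjusted p among nuclear genes. *Ndufb11*, an accessory subunit of the membrane arm, had the highest value, at 98.3, 103 and 121 CPM against 101, 97.2 and 92.4 CPM (+0.14, SE 0.12, adjusted p = 0.457). *Ndufa4*, named for complex I but known to sit in complex IV, was at 138, 132 and 183 CPM against 161, 146 and 138 CPM (+0.01, SE 0.16, adjusted p = 0.958). The 26 genes of the Ndufa, Ndufb and Ndufc series had a median of -0.23 and the 11 of the Ndufs and Ndufv series, which carry most of the iron-sulphur and flavin centres, -0.22.

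All 4 genes of complex II, which has no mitochondrial subunit, had values below 0, and none passed the threshold. *Sdhd*, a membrane anchor, was at 136, 136 and 208 CPM with dox and 210.1, 240.3 and 195 CPM without (-0.45, SE 0.20, adjusted p = 0.20). *Sdhb*, the iron-sulphur subunit, was at 107, 97.8 and 148 CPM against 141, 155 and 143 CPM (-0.33, SE 0.18, adjusted p = 0.258). Both overlapped through dox-treated replicate 3. *Sdha*, the flavin subunit that oxidizes succinate, was at 393, 353 and 392.4 CPM against 416, 454 and 439 CPM (-0.20, SE 0.10, adjusted p = 0.246), with no overlap. *Sdhc*, the other anchor, was at 105, 106 and 124 CPM against 120.0, 132 and 130.0 CPM (-0.19, SE 0.11, adjusted p = 0.307).

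The 9 nuclear genes of complex III had a median of -0.26, all below 0. *Cyc1* (chromosome 15, 76173953 to 76176364), the cytochrome c1 that hands electrons to cytochrome c, was at 178, 175 and 185 CPM with dox and 220.1, 272 and 238 CPM without. Its log2 fold change of -0.43 (SE 0.12, adjusted p = 0.0755) had the smallest adjusted p of the nuclear members, and dox-treated replicate 3 was as low as the others. With voom precision weights it passed the threshold (adjusted p = 0.0444). *Uqcrc1*, a core protein of the matrix side, was at 251, 248 and 280.3 CPM against 301, 375 and 336 CPM (-0.37, SE 0.12, adjusted p = 0.116). *Uqcrh*, the hinge protein, was at 115, 108 and 163 CPM against 134, 137 and 114 CPM (-0.01, SE 0.19, adjusted p = 0.966), with overlapping groups. *Cycs*, cytochrome c itself, was at 97.5, 103 and 139 CPM against 156, 158 and 126 CPM (-0.39, SE 0.18, adjusted p = 0.213). Its sequence matches *Gm10053* and *Gm10108* at 99.8% and 99.6% over 476 bases, so the split of reads among them is uncertain.

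Complex IV has 12 nuclear members, with a median of -0.26. *Cox7a2l* (chromosome 17, 83901259 to 83913673), known for joining complexes III and IV into supercomplexes, was the exception. It was at 188, 173 and 211 CPM with dox and 154, 131 and 146 CPM without, a log2 fold change of +0.40 (SE 0.13, adjusted p = 0.0994), and was the only nuclear member higher in every dox-treated library. Its relative *Cox7a2*, a subunit of the enzyme itself, was at 79.999, 70.1 and 110 CPM against 105, 108 and 94.3 CPM (-0.26, SE 0.19, adjusted p = 0.379). The log2 difference between these related genes was 1.23, 1.30 and 0.95 with dox and 0.56, 0.29 and 0.63 without, so the groups did not overlap. *Cox7a2l* passed the threshold under 6 of 20 alternatives and kept a positive value under all 20. The pair was singled out by the direction of *Cox7a2l*, so this ratio is a description.

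*Cox5a*, a subunit of the matrix side, had the lowest value in complex IV, at 107, 104 and 132 CPM with dox and 142, 167 and 139 CPM without (-0.39, SE 0.14, adjusted p = 0.138), with no overlap. *Cox4i1*, the widely expressed form of subunit 4, was at 289.7, 295 and 330.3 CPM against 348, 413 and 352 CPM (-0.28, SE 0.12, adjusted p = 0.188). *Cox8a*, the widely expressed form of subunit 8, was at 133, 139 and 173 CPM against 183, 199 and 179 CPM (-0.34, SE 0.14, adjusted p = 0.167). Neither overlapped, and neither passed the threshold. *Cox6a1* was at 203, 202 and 263 CPM against 252, 277 and 266 CPM (-0.26, SE 0.14, adjusted p = 0.266), and overlapped through dox-treated replicate 3.

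*Cox6b2*, the form of subunit 6b best known from testis, was measured beside the general form *Cox6b1*. *Cox6b2* was at 37.1, 37.3 and 48.7 CPM with dox and 49.0, 41.6 and 56.7 CPM without (-0.26, SE 0.17, adjusted p = 0.356). *Cox6b1* was at 134, 134 and 184 CPM against 164, 175 and 161 CPM (-0.16, SE 0.16, adjusted p = 0.517). Per kilobase in untreated cells *Cox6b2* was at 89.1 CPM and *Cox6b1* at 330.4 CPM, and their log2 difference overlapped between the groups.

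Complex V has 17 nuclear members by the symbol rule, with a median of -0.20. *Atp5o*, the stalk subunit also called OSCP, was lowest, at 171, 160.2 and 214 CPM with dox and 222, 243 and 219 CPM without (-0.34, SE 0.14, adjusted p = 0.180). *Atp5l*, a membrane subunit, was highest, at 114, 112 and 174 CPM against 142, 121 and 115 CPM (+0.06, SE 0.21, adjusted p = 0.871). The groups did not overlap for *Atp5o* and did for *Atp5l*. The genes *Atp5g1*, *Atp5g2* and *Atp5g3*, which code for the same mature ring subunit, had log2 fold changes of -0.25, -0.15 and -0.31, with adjusted p of 0.331, 0.494 and 0.194. Without *Atp5s* and *Atp5sl* the nuclear members had a median of -0.24.

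**Figure D3:**
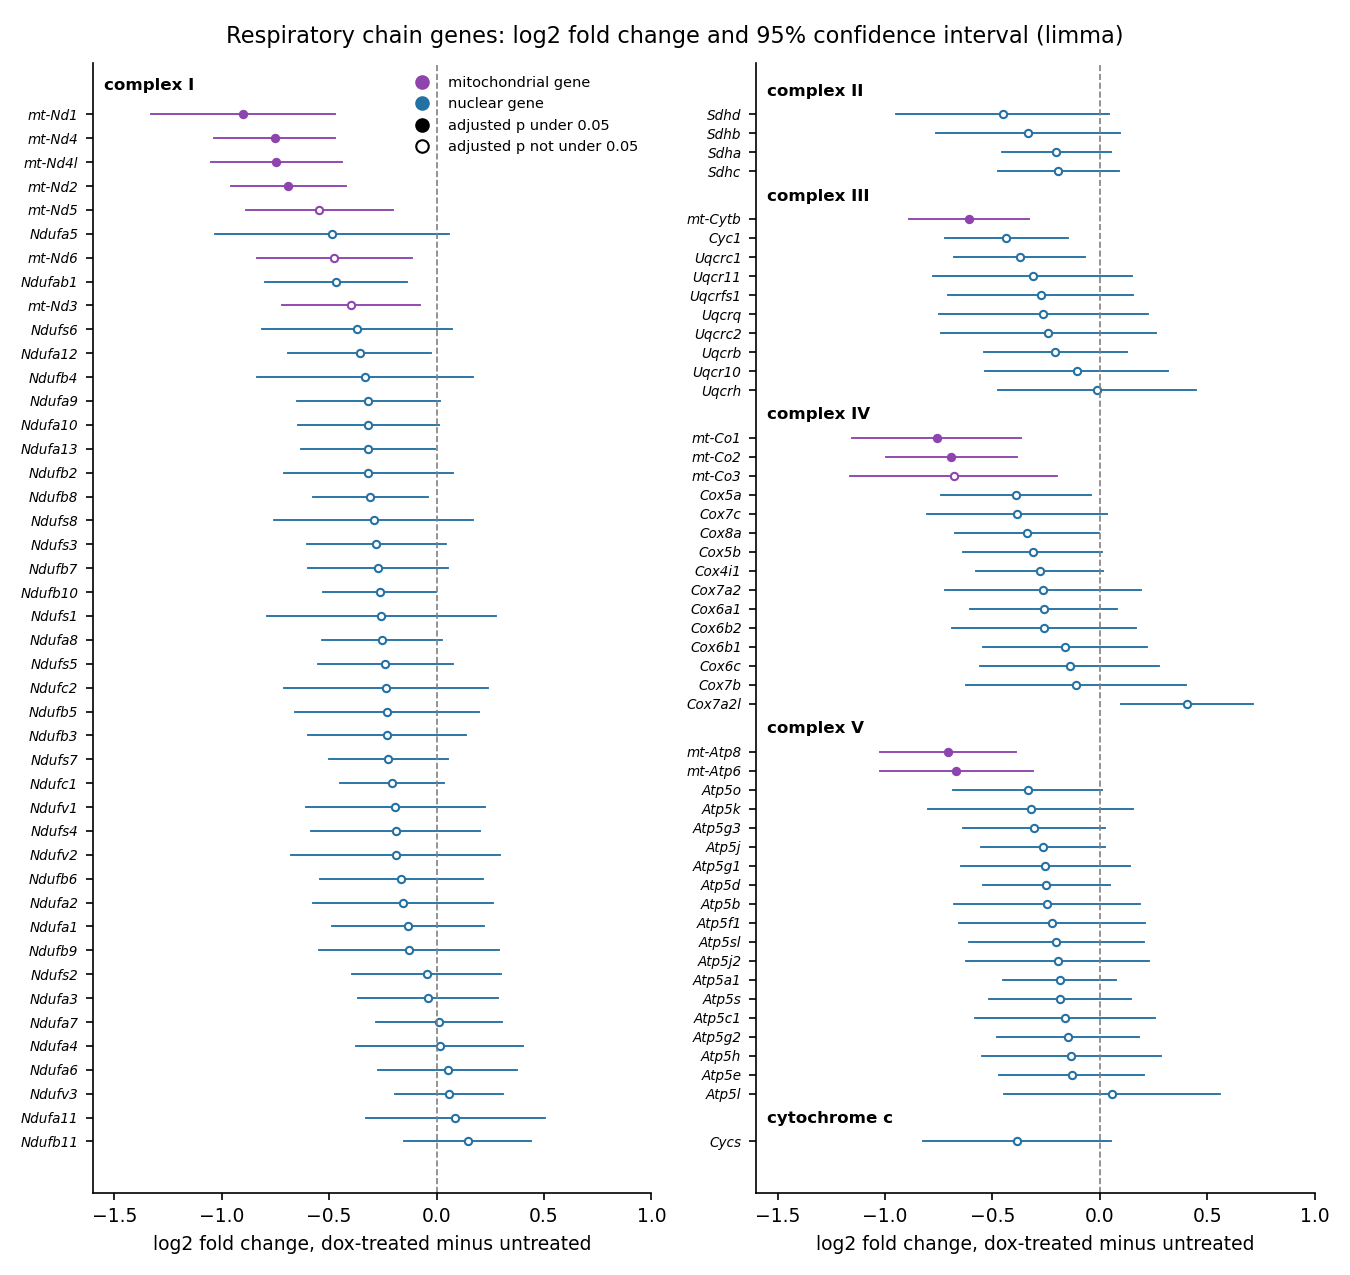
Log2 fold change (dox-treated minus untreated, horizontal axis) with the 95% confidence interval from limma for the 93 respiratory genes, ordered within each complex. Mitochondrial genes (purple) lie between -0.90 and -0.40 with 9 filled points that pass the threshold, and nuclear genes (blue) between -0.49 and +0.40 with none.

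Within each complex that draws on both genomes, mitochondrial genes were lower relative to nuclear genes in every dox-treated library than in any untreated one. Over all members the mean log2 level of mitochondrial minus nuclear genes was 3.73, 3.86 and 3.72 with dox and 4.22, 4.08 and 4.36 without, a difference of -0.45. A constant scaling factor of a library cancels in this ratio, and dox-treated replicate 3 did not stand apart in it. The difference was -0.44 in complex I, -0.36 in complex III, -0.50 in complex IV and -0.48 in complex V. Counted as reads, the ratio of mitochondrial to nuclear reads was 2.55 ± 0.0804 with dox and 3.59 ± 0.348 without (SD, n = 3 each). Scaling that depends on a gene's level does not cancel. The difference between the median log2 fold changes of mitochondrial and nuclear genes was -0.45 with the deposited scaling and -0.23 with quantile normalization. It was -0.0926 with GC, length and mean expression regressed out and -0.0379 with mean expression alone regressed out. These regressions are linear in the mean log2 level. The median fold changes of other genes were not, at +0.22 from 1 to 10 CPM, -0.01 to 100 CPM, -0.16 to 1000 CPM and -0.05 above. No p is given, as the members were chosen with results known.

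**Figure D4:**
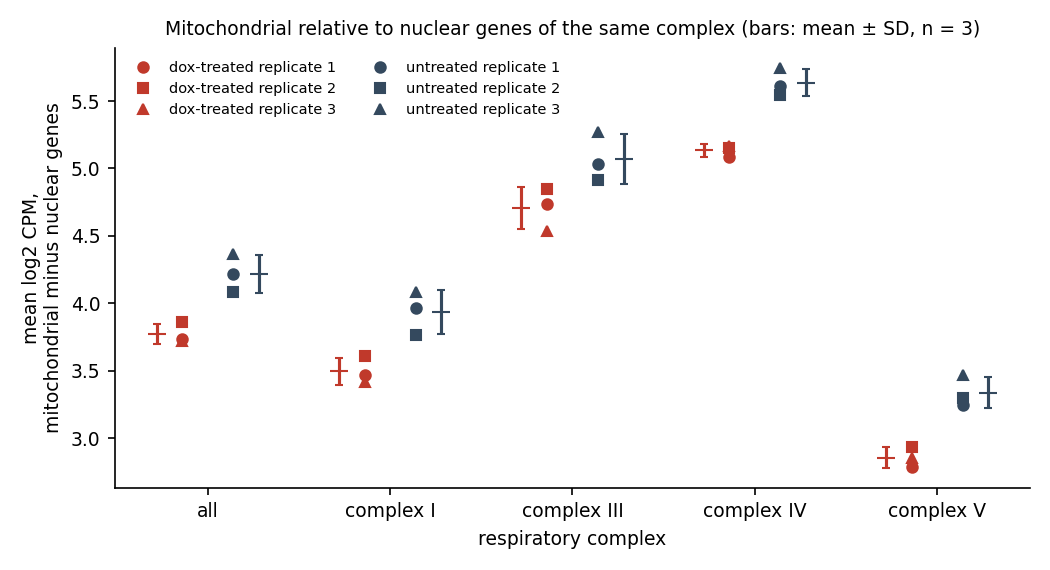
Mean log2 CPM of mitochondrial minus nuclear genes (vertical axis) over all members and within complexes I, III, IV and V, for 3 dox-treated (red) and 3 untreated (dark) libraries, with mean ± SD beside the points. The groups do not overlap in any of the 5 comparisons.

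The mitochondrial genes are among the most abundant in the libraries and are poor in GC, so other genes of the same level and GC content were set beside them. Of the 13, 9 had a mean of at least 1000 CPM and 4 a mean between 100 and 1000 CPM. The 74 other genes of at least 1000 CPM had a median log2 fold change of -0.05, and 1 of them (*Mpo*, a granulocyte-monocyte marker) was at or below the median of the mitochondrial genes. The 2345 other genes between 100 and 1000 CPM, a class with 45 of the nuclear members, had a median of -0.16, and 29.3% were lower in every dox-treated library. Among the 774 other genes within the GC range of the mitochondrial genes, 31.9% to 41.1%, the median was +0.06 and 7.36% were lower in every dox-treated library. With GC content and transcript length regressed out of each library the mitochondrial median was -0.66 and 9 genes passed the threshold, and with mean expression regressed out it was -0.21 and 1 passed, both settings chosen after seeing the data. With all 3 regressed out it was -0.12 and none passed. Of the 11306 genes in these fits 468, 567 and 658 were lower past the threshold, against 384 of 12088 in the fit without correction.

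**Figure D5:**
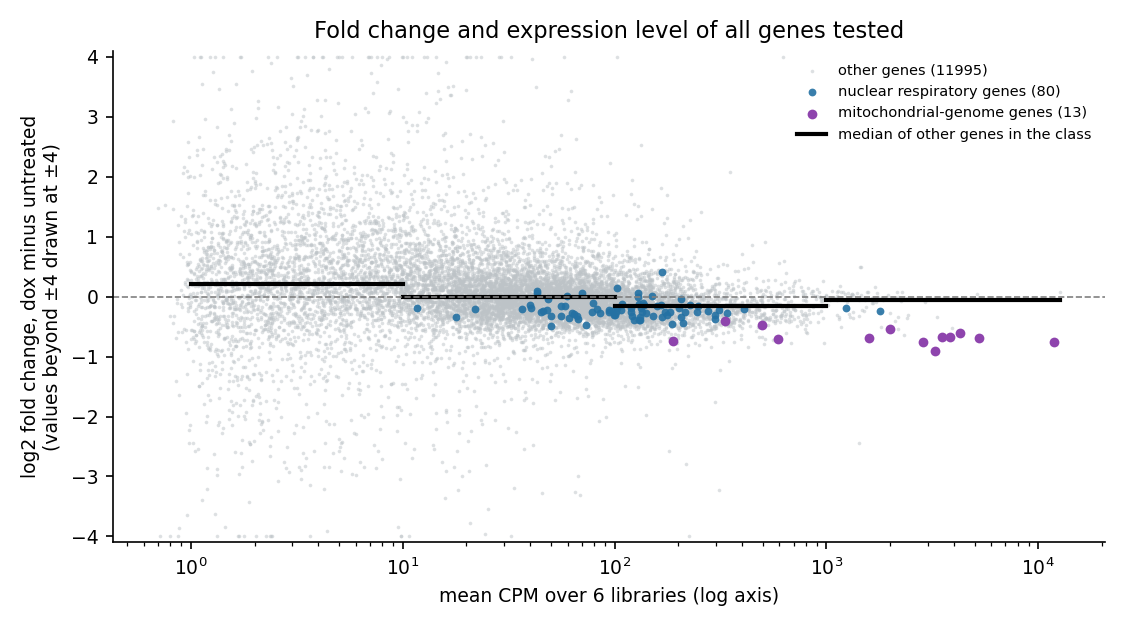
Log2 fold change (vertical axis, values beyond ±4 drawn at ±4) against mean CPM over 6 libraries (log axis) for all genes tested, with nuclear (blue) and mitochondrial (purple) respiratory genes marked and black lines at the median of other genes per expression class. The mitochondrial genes lie below the class medians of -0.05 at 1000 CPM or more and -0.16 between 100 and 1000 CPM.

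Other genes of mitochondrial function were examined by list. The RNAs of the mitochondrial ribosome come from the same genome. *mt-Rnr1* was at 146, 103 and 169 CPM with dox and 179, 203 and 170.3 CPM without (-0.43, SE 0.20, adjusted p = 0.22), and *mt-Rnr2* was at 229.7, 130.4 and 176 CPM against 333, 300.1 and 265 CPM (-0.78, SE 0.23, adjusted p = 0.0887). Both were lower in every dox-treated library and neither passed the threshold with or without dox-treated replicate 3. Of 29 genes for maintenance and expression of mitochondrial DNA, 1 fell and 1 rose, where 3.18% and 4.59% of all genes did. Without dox-treated replicate 3, 10 fell and 4 rose (34.5% and 13.8%), where 14% and 14.9% of all genes did. *Peo1*, the helicase Twinkle that opens mitochondrial DNA for copying, was at 49.8, 49.1 and 54.4 CPM against 69.3, 84.4 and 71.9 CPM (-0.55, SE 0.12, adjusted p = 0.0485). *Tk2*, the thymidine kinase of mitochondria, was at 38.5, 44.6 and 33.5 CPM against 25.2, 22.1 and 24.5 CPM (+0.69, SE 0.14, adjusted p = 0.0419). *Polrmt*, the RNA polymerase of mitochondria, was at 65.9, 61.6 and 56.7 CPM against 59.2, 74.6 and 72.2 CPM, and *Tfam*, which packs and helps transcribe mitochondrial DNA, at 74.1, 72.3 and 92.6 CPM against 101, 106 and 88.0 CPM. Both overlapped between the groups, and they were named for their role.

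Among 19 mitochondrial chaperones and proteases 2 fell and none rose, where 3.18% and 4.59% of all genes did, and 8 fell without dox-treated replicate 3 (42.1%, against 14%). *Hspd1*, the chaperonin HSP60, was at 698, 663 and 785 CPM with dox and 1095, 1482.5 and 1107.5 CPM without (-0.77, SE 0.16, adjusted p = 0.0434). *Htra2*, a protease of the intermembrane space, was at 140.1, 126 and 169.95 CPM against 228, 263 and 249.95 CPM (-0.78, SE 0.15, adjusted p = 0.0360). *Htra2*, *Hspd1* and *Peo1* each share exon bases with a gene on the opposite strand, so their reads are uncertain where strand was not used. Of 28 assembly factors none passed the threshold, with a median of -0.25, and 3 fell without dox-treated replicate 3 (10.7%, against 14% of all genes). Of 22 enzymes of the tricarboxylic acid cycle none passed, with a median of -0.22, and 12 fell without that library (54.5%, against 14%), with a median of -0.38. *Cox17*, the copper chaperone for complex IV, was higher in every dox-treated library, at 86.4, 84.8 and 101 CPM against 70.6, 75.7 and 60.6 CPM (+0.40, SE 0.13, adjusted p = 0.119). At an unadjusted p under 0.05 there were 6 assembly factors lower and 1 higher, and 3 cycle enzymes lower and 1 higher, where 13.6% and 15.6% of all genes were.

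Of 15 nuclear regulators of respiratory genes 2 rose and none fell, where 4.59% and 3.18% of all genes did, and 2 rose and 1 fell without dox-treated replicate 3 (13.3% and 6.67%, where 14.9% and 14% of all genes did). *Nrip1*, a corepressor of nuclear receptors that lowers oxidative genes in fat and muscle, was at 146, 151 and 135 CPM with dox and 93.7, 74.0 and 87.6 CPM without (+0.77, SE 0.13, adjusted p = 0.0273). *Mef2a*, a transcription factor of muscle and blood cells, was at 53.3, 51.1 and 51.6 CPM against 32.4, 29.8 and 32.0 CPM (+0.73, SE 0.09, adjusted p = 0.0158). *Nrf1* and *Gabpa*, whose proteins bind promoters of many respiratory genes, had log2 fold changes of -0.10 and -0.10 (adjusted p = 0.560 and 0.674), with overlapping groups. Among these lists of mitochondrial function, the calls of the 6 genes past the threshold depended on single libraries. The largest adjusted p with 1 library left out was 0.173 for *Peo1*, 0.138 for *Tk2*, 0.158 for *Hspd1*, 0.127 for *Htra2*, 0.114 for *Nrip1* and 0.0734 for *Mef2a*.

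Promoter sequence was read for the 68 nuclear members found in the RefSeq promoter table of GRCm38.p6, from 250 bases before to 50 bases after each start. Exact letters were searched on both strands, with the core of each motif only. The NRF1 core GCATGCG was found in 12 of the 68 (17.6%, against 4.01% of all promoters), the GABPA core CCGGAAG in 16 (23.5%, against 9.93%) and the YY1 core AAGATGG in 12 (17.6%, against 7.28%). None of these cores contains another, although an NRF1 core can be matched on both strands at overlapping bases, and a match is a description of the sequence only. The 22 members with an NRF1 or GABPA match had a median log2 fold change of -0.26 and the 46 without one -0.24, and *Cox7a2l* was among those without. Sequences are shown for 3 members that differ in matches and in direction, with matches in capitals. They are *Uqcrc1* (chr9:108936398-108936697, plus strand), lower in every dox-treated library, with an NRF1 match, *Cox6a1* (chr5:115348909-115349208, minus strand), with an NRF1 and then a GABPA match, and *Cox7a2l* (chr17:83514284-83514583, minus strand), the member higher in every dox-treated library, with none of the cores.
Uqcrc1: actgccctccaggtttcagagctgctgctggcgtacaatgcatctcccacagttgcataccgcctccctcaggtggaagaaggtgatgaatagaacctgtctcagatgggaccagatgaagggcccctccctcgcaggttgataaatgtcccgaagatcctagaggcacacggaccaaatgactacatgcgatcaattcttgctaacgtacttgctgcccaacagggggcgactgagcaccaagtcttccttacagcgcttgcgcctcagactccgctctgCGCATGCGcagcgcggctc
Cox6a1: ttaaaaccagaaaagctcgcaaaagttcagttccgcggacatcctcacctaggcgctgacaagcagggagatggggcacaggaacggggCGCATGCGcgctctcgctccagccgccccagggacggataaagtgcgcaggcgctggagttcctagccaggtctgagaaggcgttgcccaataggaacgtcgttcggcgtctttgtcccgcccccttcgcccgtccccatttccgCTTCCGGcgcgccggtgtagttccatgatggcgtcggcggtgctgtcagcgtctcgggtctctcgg
Cox7a2l: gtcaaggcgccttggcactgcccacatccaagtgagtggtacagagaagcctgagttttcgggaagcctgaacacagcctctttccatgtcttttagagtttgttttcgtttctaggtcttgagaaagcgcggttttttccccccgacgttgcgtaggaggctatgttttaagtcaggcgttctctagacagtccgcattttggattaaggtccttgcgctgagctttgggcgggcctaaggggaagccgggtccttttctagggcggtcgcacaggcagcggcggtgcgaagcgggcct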

How the data were processed

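Libraries were made from MEPs of 3 dox-treated and 3 untreated replicates. The authors trimmed adapters with Cutadapt, quantified reads with RSEM on the NCBIM37 transcriptome and normalized with limma, and bcl2fastq is also named in the submitters' processing notes. The deposited values are log2 CPM for 12101 genes, with 0.5 reads added before scaling to a normalized library size. The normalization method, the low-expression filter and the use of strand are not given in the sources used here. Reads recovered from the values were whole to within 6.6e-09, and normalized library sizes were between 0.9464 and 1.082 times the listed reads.

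Symbols matched 12067 of the gene IDs in the NCBIM37 annotation, which also gave positions, and length and GC content for 11316. Levels per kilobase use the transcript with the longest coding sequence. Promoters came from RefSeq (GRCm38.p6), a different build.

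limma 3.58.1 (R 4.3.3, lmFit and eBayes) was fitted to the deposited log2 values of 12088 genes (1 CPM or more in 3 or more libraries), with neither block nor weights, and Benjamini–Hochberg adjustment at 0.05. Folds understate changes of genes with few reads. Python 3.11.15 and matplotlib 3.10.9 made tables and figures. On 10 simulated sets of between 12015 and 12032 genes with 200 changed, the fit recovered 97.1% of changed genes. Of its calls there, 6.58% were false. Both percentages describe those sets only, and recovery for the respiratory genes was not tested.

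Labels do not say that replicates came from separate animals, so p-values measure only the spread between these samples, and limits from read numbers cover counting error only. The members and lists were chosen with earlier results of these data known. Genes named are all mitochondrial-genome members, the highest and lowest nuclear member of each complex, isoform sets, *Sdha* to *Sdhd*, *Cyc1*, *Cycs*, and up to 5 genes past the threshold in each list, by p, and others were named after their values were seen. The 20 alternatives changed the reads added, the filter, the variance model, weights, scaling, block and sequence corrections, and left out each library in turn.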

Additional observations from a re-analysis of the deposited data

How the results depend on the processing

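With 3 libraries a group, the number of mitochondrial-genome genes past the threshold (9) depended on single libraries, ranging from 0 without any one of dox-treated replicates 1 or 2 or untreated replicates 1, 2 or 3 to 12 without dox-treated replicate 3. Over all genes 36 to 126 were lower in the former fits and 1687 in the latter, against 384 with all libraries. The number of nuclear genes lower was between 0 and 37, and the number higher was 0 throughout. Medians of log2 fold change kept their sign in these fits, at -0.80 to -0.61 for mitochondrial and -0.37 to -0.16 for nuclear genes, with differences from -0.50 to -0.39. For complexes I, III, IV and V the mitochondrial medians ranged from -0.74 to -0.62, -0.67 to -0.55, -0.89 to -0.61 and -0.80 to -0.61, and the nuclear medians of complexes I to V from -0.35 to -0.17, -0.39 to -0.19, -0.45 to -0.16, -0.39 to -0.20 and -0.33 to -0.14. The list genes *Peo1*, *Tk2*, *Hspd1*, *Htra2*, *Nrip1* and *Mef2a* each lost their call in some of these fits. In the 5 lists of nuclear genes for mitochondrial function no gene passed without any one of the libraries other than dox-treated replicate 3, a count added after seeing the data. With array quality weights 51 nuclear genes were lower and 1 higher, and the complex IV mitochondrial median was -0.89. With a mean-variance trend 2 were lower and 1 higher, with voom precision weights 1 was lower, and with a mean of at least 10 CPM 1 was lower, where 454 of 8974 genes were.

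Quantile normalization gave 537 genes lower and 648 higher among 12088, with 5 mitochondrial genes lower, 1 nuclear gene higher, a mitochondrial median of -0.39 and a difference of -0.23, with complex medians of -0.40 (I), -0.17 (III), -0.29 (IV) and -0.35 (V). Plain totals moved the median of all genes from -0.03 to +0.08, gave 1 nuclear gene higher, and complex I and III mitochondrial medians of -0.58 and -0.50. Over all genes, 286 were then lower and 631 higher, against 384 and 555. With mean expression regressed out, a setting chosen after seeing the data, 1 mitochondrial gene was lower and 1 nuclear gene higher, the mitochondrial median was -0.21, the difference -0.0379, and the complex medians -0.31 (I), -0.12 (III), -0.18 (IV) and -0.32 (V). With GC, length and mean expression regressed out, 0 mitochondrial genes were lower and 1 nuclear gene higher. The medians were then -0.12 (mitochondrial) and -0.0307 (nuclear), the difference -0.0926, the mitochondrial complex medians -0.27 (I), -0.0636 (III), -0.11 (IV) and -0.17 (V), and the nuclear ones -0.0277 (III), +0.0356 (IV) and +0.0501 (V). The cause was not tested.

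Deviations from the group means, over all genes tested, had correlations of 0.0184, -0.121 and -0.299 between same-numbered replicates. Between replicates of unlike number they ran from -0.204 to 0.238. With values centred in groups of 3 these correlations cannot show whether the numbers pair the samples, which the labels do not say. With a replicate block 0 mitochondrial genes were lower, 29 genes fell and 53 rose among all genes, and medians were unchanged by construction. Adjusted p was then between 0.106 (*Mef2a*) and 0.176 (*Peo1*) for *Peo1*, *Tk2*, *Hspd1*, *Htra2*, *Nrip1* and *Mef2a*. The block with GC, length and mean regressed out gave 0 mitochondrial genes lower and the medians of that correction without the block.

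Single genes turned sign with GC, length and mean regressed out, with or without the block. *Atp5g1* was then at +0.0639, *Atp5g2* at +0.19, *Atp5g3* at +0.0299, *Cox4i1* at +0.10, *Cox6a1* at +0.11, *Cox6b1* at +0.15, *Sdha* at +0.0139 and *Uqcrh* at +0.25. With mean expression alone regressed out *Atp5g2*, *Sdha* and *Uqcrh* were at +0.00913, +0.0224 and +0.0790. *Uqcrh* was also positive with quantile normalization (+0.10), TMM on nuclear genes (+0.00123), plain totals (+0.10) and GC and length regressed out (+0.0492, chosen after seeing the data), and leaving out single libraries gave -0.20 to +0.10. *Atp5l* and *Ndufa4* were at -0.11 and -0.0929 with array quality weights, and at -0.15 to +0.17 and -0.13 to +0.10 with single libraries left out.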
